A study of Drosophila melanogaster with 4 samples.

Results

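The regions described are 523 ChIP-seq summits that lie in coding sequence (CDS) or in a 3′ untranslated region (3′ UTR) and over 1 kb from every annotated transcription start site (TSS). They were chosen by position alone from the 30000 peaks called on 4 pooled replicates, of which they are 1.74%, and are called members below. Of them 220 lay in a CDS, 9 of these also in a 3′ UTR of another transcript, and 303 lay in a 3′ UTR only. A further 472 summits in such sequence were within 1 kb of a TSS and were left out.

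The chromatin came from whole Drosophila melanogaster at the white prepupa stage, males and females pooled. The animals stably expressed the receptor Eip78C with GFP fused to its C-terminus, and chromatin was recovered with an antibody against GFP. All 4 biological replicates belong to this 1 group, and neither an untagged nor an input sample was analysed here. The labels name no promoter for the tagged copy, and whole animals mix all tissues.

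Eip78C belongs to the Rev-erb group of nuclear receptors, and ecdysone, the moulting hormone, induces its gene. Receptors of this type bind half-sites in DNA, and ChIP-seq summits of transcription factors usually mark promoters and enhancers, which lie mostly in noncoding sequence. Coding exons are held to their sequence by the protein they encode. A 3′ UTR carries signals for RNA stability and translation, and its end adjoins the sequence between genes.

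Each list was thresholded by rank. The joint set, made by the authors by irreproducible discovery rate (IDR) and called the optimal set, holds 8282 peaks, and these were the strongest 8282 of the pooled list in position, summit and score. The replicate lists hold 30000 peaks each and include background, so the 8282 strongest of each were used unless the full list is named. Scores are the authors' own, in a unit the files do not give, and a rank of 1 is the highest score of a list. How deeply each library was sequenced is unknown, since the lists hold no read counts.

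Distances to a stop codon were taken to that of the longest transcript coding at the summit, and other stop codons were not measured. Of the 10 CDS members in the optimal set, 5 had their summit within 100 bp of the end of a stop codon. Of all 220 CDS members 21 did, and the share of CDS bases that close to a stop codon was not computed. The last 30 coding bases of 4 of these hosts are printed from the RefSeq dm6 genome on the coding strand, with the stop codon in capitals, because the summits lie in or beside them.
CG5895: gtaaatttggaaatatttaatttgtacTGA
Pde1c: gcggagccggcagatggcgctgcggccTAA
CG10357: tacggccagggcaggaactcacatttcTGA
su(w[a]): ttagaagaccgagcttgtcgctatttaTAG
The stretch of CG5895 is chr3L:16037133-16037162 on the plus strand, and its summit lay 15 bp from the end of the stop codon. Pde1c is on the minus strand at chr2L:11816558-11816587, with the summit 29 bp from that end. In CG10357, at chr3L:3616520-3616549 on the plus strand, the distance was 7 bp. In su(w[a]), at chrX:1041612-1041641 on the plus strand, the summit lay 40 bp from the end of the stop codon, just before the printed bases, and the summit is exonic in 2 of the 7 su(w[a]) transcripts that span it. The fifth such host, otp, is described below by its values.

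Coding sequence was the region with the fewest summits. In the 8282 strongest peaks of each replicate, CDS over 1 kb from a TSS held 0.704, 0.633, 0.844 and 0.633 summits per Mb in replicates 1 to 4. The mean was 0.704 ± 0.0995 per Mb (SD, n = 4), against 64.3 ± 3.12 per Mb in introns and 38.9 ± 3.46 per Mb in intergenic sequence at the same minimum distance. CDS density was therefore 92.8-fold ± 13.8 lower than that of introns. In all 30000 pooled peaks it was 16.7-fold lower. The 4 values of CDS and of introns did not overlap, and the exact two-sided sign-flip permutation test on the log ratio gave p = 0.13, the smallest that 4 replicates allow.

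The 3′ UTRs were low as well, though much less so. They held 13.0, 11.8, 11.8 and 11.4 summits per Mb in replicates 1 to 4 (mean 12.0 ± 0.695, SD, n = 4). This was 5.36-fold ± 0.445 lower than in introns and 3.24-fold ± 0.364 lower than in intergenic sequence (p = 0.13 for each, exact sign-flip permutation test, n = 4). CDS in turn was 17.3-fold ± 2.22 lower than 3′ UTRs (p = 0.13, same exact test, n = 4), and 3.93-fold lower in all 30000 pooled peaks. Exons outside CDS and 3′ UTR, such as those of 5′ UTRs and noncoding RNAs, held 55.8 ± 5.33 per Mb (SD, n = 4), lower than introns in each replicate. In all pooled peaks they held 286 per Mb, against 259 in introns, so the direction between these regions depends on the list.

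**Figure D1:**
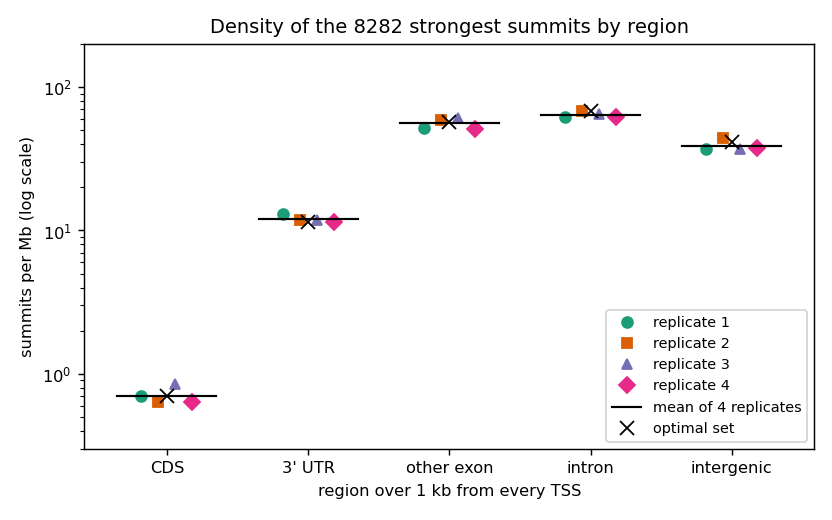
Summits per Mb (log axis) in CDS, 3′ UTR, other exons, introns and intergenic sequence over 1 kb from every TSS, for the 8282 strongest peaks of each of 4 replicates (coloured symbols), their mean (line) and the optimal set (cross). The CDS values sit between 0.633 and 0.844 per Mb and the 3′ UTR values between 11.4 and 13.0, below all values of the other regions.

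As shares of the list, the members' sequence takes up 19195107 bases, which is 14.3% of the 6 arms 2L, 2R, 3L, 3R, 4 and X. It held 75, 68, 71 and 66 of the 8282 strongest summits of replicates 1 to 4, or 0.845% ± 0.0473 (SD, n = 4; p = 0.13, exact sign-flip permutation test against the share of bases). The full replicate lists of 30000 peaks held more, with 2.29%, 4.38%, 2.17% and 2.61% in replicates 1 to 4. Replicate 2 stood apart through CDS, which took 3.08% of its full list against 0.743%, 0.863% and 1.32% of the lists of replicates 1, 3 and 4. Among its strongest 8282 peaks this was not seen, since CDS there took 0.109%, against 0.121%, 0.145% and 0.109%.

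Members were weak peaks, and the pooled list, like the replicate lists, includes background. Their median −log10 q-value as the authors gave it was 0.665, and 0.484 for CDS members, against 1.34 for other summits over 1 kb from a TSS. Members had a median rank of 21369 in the pooled list and a median score of 31.4, against 16226 and 45.8 for the 19341 other summits over 1 kb from a TSS. CDS members had a median rank of 23707 and 3′ UTR members one of 18731. The optimal set held 67 members, or 12.8% (95% exact binomial interval 10.1 to 16.0%, for counting error only), against 24.5% of the other summits over 1 kb from a TSS and 27.6% of all pooled peaks. By class, 10 CDS members (4.55%, 2.20 to 8.20%) and 57 3′ UTR members (18.8%, 14.6 to 23.7%) were in it.

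Along the ranking, both classes were most frequent among the weakest peaks. CDS members made up 0.10% of ranks 1 to 1000, 0.117% of ranks 4001 to 8282 and 1.94% of ranks 25001 to 30000. The 3′ UTR members made up 0.60%, 0.981% and 1.64% of the same ranks. In the 1000 peaks after the first 1000, 1 peak was a 3′ UTR member (0.10%) and 1 a CDS member (0.10%), and in the following 2000 the shares were 0.40% and 0.15%. Most members of both classes lay in the part of the list that the optimal set leaves out, as did most of all pooled peaks. The set held 4.55% of CDS members and 18.8% of 3′ UTR members. It held 21.5% of intergenic summits over 1 kb and 27.6% of all pooled peaks.

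**Figure D2:**
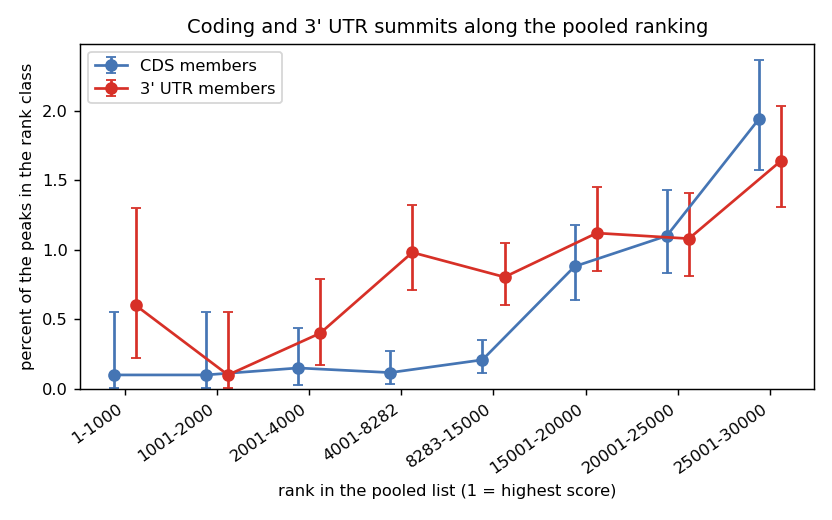
Percent of the peaks in each class of pooled rank that were CDS members or 3′ UTR members, with exact 95% binomial intervals. CDS members stay near 0.1% up to rank 8282 and reach 1.94% in the last class, where 3′ UTR members make up 1.64%.

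The replicates met members less often than other summits. A replicate's strongest peaks overlapped 14.9%, 14.0%, 14.1% and 13.0% of the members in replicates 1 to 4, against 26.9% ± 1.38 of the other summits over 1 kb (SD, n = 4) and 30.7%, 31.3%, 31.1% and 30.7% of all pooled peaks. The difference was −12.9 percentage points ± 1.64, with the same sign in 4 of 4 replicates (p = 0.13, exact sign-flip permutation test, n = 4, the smallest possible). The pooled list was called on these same 4 replicates, so this difference is not independent of the lower pooled ranks of members. No comparison at equal rank was made. The share was 7.16% ± 0.227 for CDS members and 19.0% ± 1.22 for 3′ UTR members (p = 0.13 for their difference, exact test, n = 4). All 4 replicates met 40 members (7.65%), against 19.8% of all pooled peaks. No replicate met 410 members (78.4%), against 62.1% of the other summits over 1 kb and 56.2% of all pooled peaks. The full lists of replicates 1 to 4 met 59.8%, 55.1%, 62.9% and 62.9% of the members, against 77.6%, 70.4%, 80% and 79% of all pooled peaks. With them, 139 members (26.6%) were met by all 4 replicates, against 49.6% of all pooled peaks. None of the full lists met 31 members (5.93%), against 2.10% of all pooled peaks.

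The leading CDS member was in otp (FBgn0015524), which encodes a homeobox transcription factor of the nervous system. Its summit at 20884589 on arm 2R lay in the last exon, 97 bp before the end of the stop codon, and ranked 766 in the pooled list. Its ranks in replicates 1 to 4 were 1986, 468, 1317 and 487, so every replicate had it among its strongest peaks, with replicates 2 and 4 ahead of the others.

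Next came members beside the printed stop codons. The one in CG5895 (FBgn0036560) ranked 1933, and 1925, 3037, 1743 and 2137 in replicates 1 to 4. The one in Pde1c (FBgn0264815), a cyclic nucleotide phosphodiesterase gene, ranked 2139, and 1908, 1997, 3626 and 1928 in the replicates. CG10357 (FBgn0035453) followed at 2302, with replicate ranks of 5623, 2257, 3926 and 1330. All 3 were in the last exon of their transcript. The su(w[a]) member (FBgn0003638) ranked 5025, and between 4312 and 7288 in the replicates (mean 5816 ± 1217, SD, n = 4). This gene encodes a splicing regulator that acts on its own transcript.

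The other optimal CDS members were over 100 bp from the end of the stop codon measured, that of the longest transcript coding at the summit. In klar (FBgn0001316), a gene for positioning nuclei, the member ranked 3230 and lay in exon 4 of 19, with replicate ranks of 5099, 2482, 4091 and 2660. In bif (FBgn0014133), which encodes an actin-binding protein of the photoreceptors, it ranked 4387, with replicate ranks of 5876, 6898, 4900 and 3914. In HisRS (FBgn0027087), the histidyl-tRNA synthetase gene, it ranked 5208, with 6531, 6575, 5605 and 5293. These 3 were met by the strongest peaks of every replicate. For bif, at least 1 replicate had no summit within 100 bp of the member, so the overlapping peak there has its summit farther away. The HisRS summit is exonic in 2 of 4 transcripts that span it and lies inside the gene Bx.

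The last pair was less secure. In Socs36E (FBgn0041184), a JAK/STAT pathway inhibitor gene, the member ranked 6581, with a better-ranked summit 201 bp away. The overlapping replicate peaks ranked 2389, 2701, 1494 and 2769, but the replicate summits within 100 bp of it ranked 11007 ± 5819 on average (SD, n = 4), so the low ranks belong to the neighbour. In Ubr1 (FBgn0030809), a ubiquitin ligase gene, the member ranked 7311 and was met in 3 full lists at 3686, 28380 and 3987, and not in that of replicate 1.

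Of the 15 best-ranked CDS members the remaining 5 were outside the optimal set. They were in SF2, a splicing factor gene (rank 8727), bin3, an RNA methyltransferase gene (9159), Cpr73D, a cuticle protein gene (9499), btsz, a synaptotagmin-like gene (9567), and bun, a growth regulator gene of the TSC22 family (10972). Replicate 2 had no peak at bin3 or btsz, and replicate 1 none at bun. The Cpr73D member lay 200 bp from a better-ranked summit and was met at ranks of 3532 to 5175, which were ahead of its own rank.

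The 3′ UTR members of ranks 401 to 1592 stood higher than all CDS members other than otp. Cals (FBgn0039928), which encodes the cadherin-like membrane protein calsyntenin, held the best-ranked member of all, at 401, on chromosome 4 (summit 1113326, in exon 12 of 12 and 452 bp from the transcript end). It ranked 534, 303, 375 and 602 in replicates 1 to 4. Ance-3 (FBgn0032536), of the family of angiotensin-converting enzymes, followed at 429, with replicate ranks of 719, 352, 387 and 434. CG7872 (FBgn0030658) ranked 526, with replicate ranks of 803, 523, 436 and 489. Every replicate placed these 3 among its first 1000 peaks.

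CG33307 (FBgn0053307), a gene inside CenG1A, held a member at 706, with replicate ranks of 523, 632, 818 and 889. NetB (FBgn0015774), the gene of the axon guidance ligand Netrin-B, held one at 864 (935, 846, 1275 and 764 in the replicates). In stas (FBgn0030850) the rank was 978, with 814, 761, 1642 and 929 in the replicates. These completed the 7 members among the first 1000 pooled peaks, of which only otp was coding.

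CG14440 (FBgn0029894) held a member of rank 1592 (mean replicate rank 1763 ± 358, SD, n = 4), and REG (FBgn0029133), the gene of a proteasome activator, one of 2104 (2220 ± 197, n = 4). Lsd-2 (FBgn0030608), which encodes a perilipin on lipid droplets, held 3 optimal members in its 3′ UTR, more than any other gene, at ranks 2123, 4790 and 5199. They lay at 15069536, 15070350 and 15071081 on X, and the first had replicate ranks of 2614, 2121, 1330 and 2966. The other two were among the strongest peaks of 3 replicates each, with 8439 in replicate 3 and 9294 in replicate 4 as the exceptions. A further Lsd-2 member, at rank 16462, lay 202 bp from the one of rank 5199 and overlapped the same replicate peaks. Tollo (FBgn0029114), a gene of the Toll receptor family, held a member of rank 2677 (3205 ± 1402, n = 4).

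**Figure D3:**
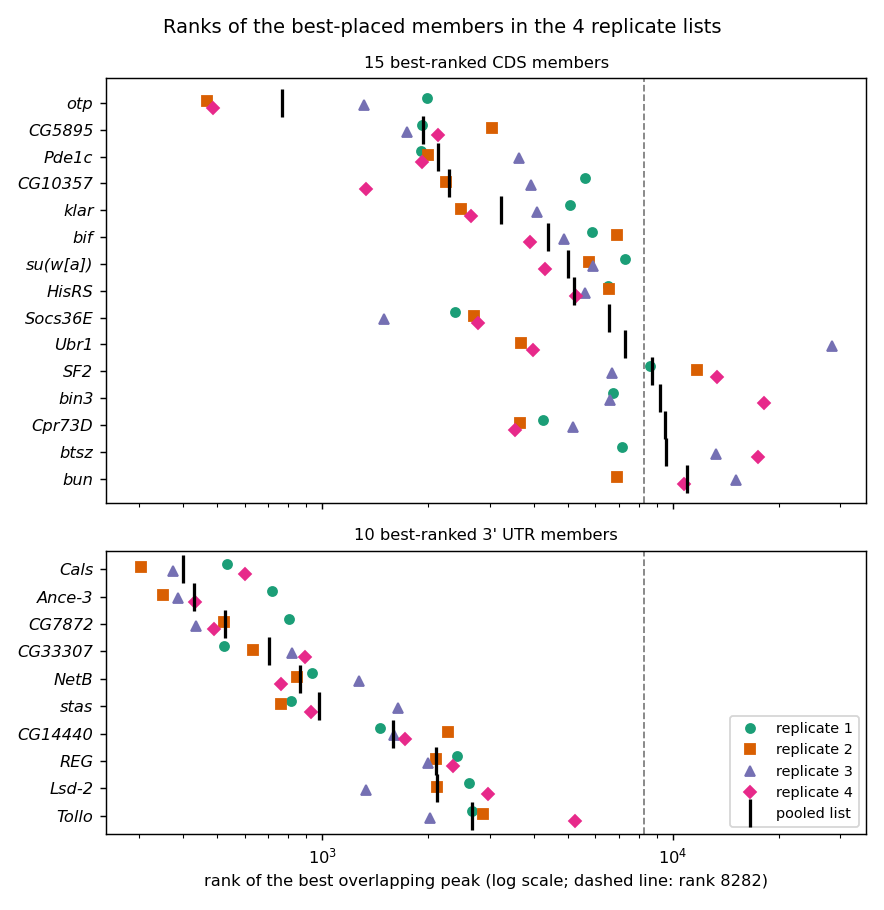
Rank (log axis) of the best overlapping peak in each replicate list for the 15 best-ranked CDS members and the 10 best-ranked 3′ UTR members, with the pooled rank as a black bar and rank 8282 as a dashed line; a missing symbol means no overlapping peak. All 10 3′ UTR members lie left of the line in every replicate, as do 9 of the 10 optimal CDS members, Ubr1 being the exception.

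Coding members lay close to noncoding sequence. The distance from summit to the nearest noncoding base was at most 100 bp for 9 of the 10 optimal CDS members (90%) and for 118 of all 220 (53.6%), against 36.2% of the CDS bases over 1 kb from a TSS. The medians were 45.5, 91.5 and 174 bp. In the strongest peaks of each replicate 70%, 77.8%, 75% and 66.7% of the 9 to 12 coding summits were that close (mean 72.4% ± 4.98, SD, n = 4). A median of 67.1% of the width of the optimal CDS peaks was coding, so these peaks reached across the border. The exception was otp, whose summit lay 140 bp inside coding sequence when all transcripts and genes are counted. Along the reading frame, 78 of the 220 CDS members fell in its first 25%, 51 and 32 in the next intervals of the same length, and 59 in its last 25%. The share of CDS bases over 1 kb from a TSS in each interval was not computed, so these counts have no background.

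**Figure D4:**
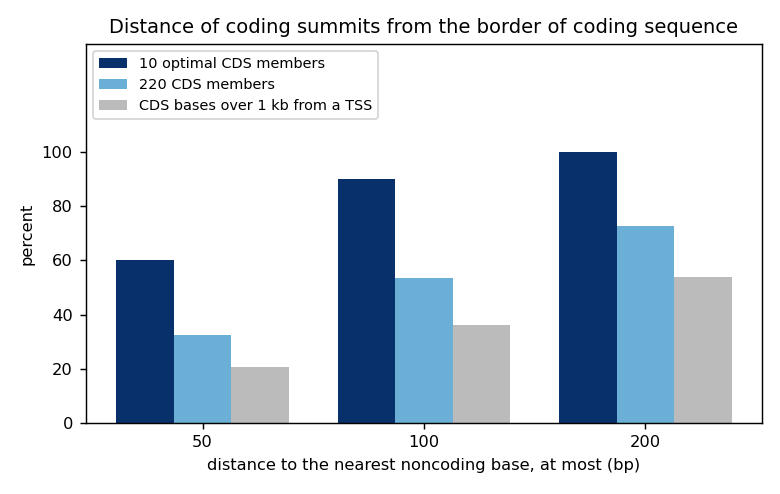
Percent of the 10 optimal CDS members, of all 220 CDS members and of all CDS bases over 1 kb from a TSS that lie within 50, 100 or 200 bp of the nearest noncoding base. At 100 bp the bars reach 90%, 53.6% and 36.2%.

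The median distance of 3′ UTR members to the end of the transcript was 681 bp, and 43.6% were within 500 bp of it. The last exon of the transcript held 95.4% of them, which follows largely from choosing 3′ UTRs. The same shares were not computed for 3′ UTR bases. Of the 57 optimal ones, 11 also lay inside another gene (19.3%), against 11.6% of all 303 3′ UTR members. The nearest TSS was within 2 kb for 26 of the 57 (45.6%), against 41.3% of all 303. Over both classes, 91.4% of the members were exonic in every transcript of the host that spans the summit, so few of them are intronic in an alternative transcript.

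The regions also differed in base composition. CDS over 1 kb from a TSS was 53.4% GC, 3′ UTRs 35.3% and introns 39.9%. In the 200 bp around the summit, CDS members averaged 54.7% GC and 3′ UTR members 37.3%, against 44.6% and 41.1% in windows 500 bp to either side. Other summits over 1 kb averaged 37.8%, and those in the optimal set 34.5%. CDS members thus had the GC content of coding sequence, while the strong noncoding summits were AT-rich.

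Densities were therefore also computed within classes of GC content of the 200 bp around each position, a division chosen after the data had been seen. CDS stayed below introns in each of 6 classes. Below 35% GC, the replicates' strongest summits were 3.00 ± 2.00 per Mb in CDS and 135 ± 2.76 in introns, and at 55% and over they were 0.866 ± 0.248 and 13.5 ± 4.59 (SD, n = 4). The ratio of CDS to introns lay between 0.0212 and 0.0661 over the classes, where it was 0.0110 without them. The optimal set has only 1 to 4 CDS summits in each class.

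The 3′ UTRs behaved otherwise. Below 35% GC they held 11.7 ± 0.905 summits per Mb against 135 ± 2.76 in introns (SD, n = 4), a ratio of 0.0868 ± 0.00526. At 50 to 55% GC they held 17.7 ± 6.85 per Mb against 13.1 ± 1.99, a ratio of 1.37 ± 0.498 that ran from 0.750 to 1.90 over the replicates and rests on 2 to 5 summits in each. In the full pooled list, which has more summits, the ratio of 3′ UTRs to introns was 0.127, 0.240, 0.325 and 0.418 in the classes below 35%, 35 to 40%, 40 to 45% and 45 to 50%, from 126, 80, 45 and 27 summits. It was 0.553 at 50 to 55% (17 summits) and 0.566 at 55% and over (8 summits), so in that list 3′ UTRs were below introns in every class. Against intergenic sequence, the replicate means of 3′ UTRs were lower only below 45% GC. At 45 to 50%, 50 to 55% and 55% and over they were 8.68, 17.7 and 7.65 per Mb, against 8.26, 8.44 and 7.55. In the full pooled list 3′ UTRs were above intergenic sequence only at 55% and over (122 against 106 per Mb). Among the strongest peaks, 3′ UTR density lay between 7.65 and 17.7 per Mb over the 6 classes with no order by GC content, where that of introns lay between 13.1 and 135 and was highest in AT-rich sequence. What part GC content has in the ranks of members was not tested beyond these classes.

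**Figure D5:**
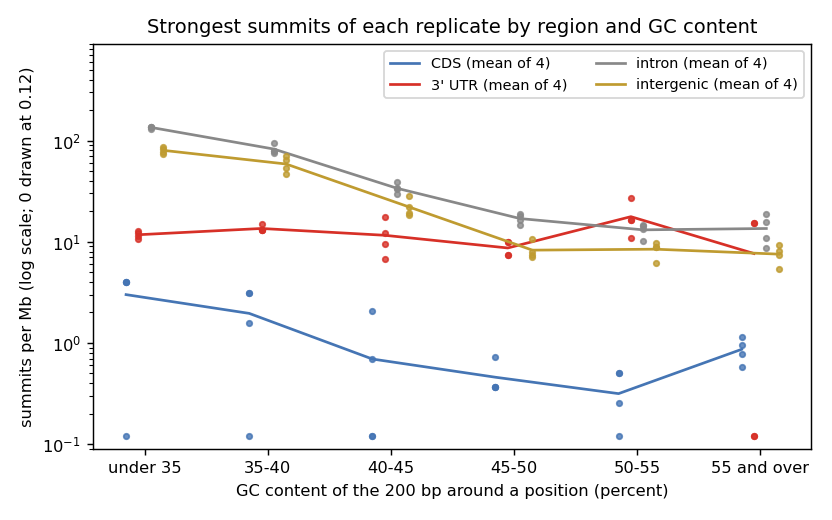
Summits per Mb (log axis, 0 drawn at 0.12) among the 8282 strongest of each replicate (dots) and their mean (lines), by GC content of the 200 bp around a position, for CDS, 3′ UTR, introns and intergenic sequence over 1 kb from a TSS. CDS lies lowest in each class of GC content by its mean, and 3′ UTRs meet introns at 50 to 55% GC.

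Densities were also taken by distance from the TSS. Over 5 kb from a TSS the optimal set held 0 CDS summits in 3422256 bases and 11 3′ UTR summits (8.13 per Mb), against 52.9 per Mb in introns. A count of 0 there allows up to 0.877 per Mb (3 counts). At 1 to 2 kb the values were 0.563, 16.8 and 103 per Mb in CDS, 3′ UTRs and introns.

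Among motifs, the half-site AGGTCA (either strand, in the 200 bp around the summit) was in 26 of 523 members (4.97%, 3.27 to 7.20%, exact 95% interval). The windows 500 bp to either side had it in 4.30%, other summits over 1 kb in 3.88% and all pooled summits in 3.79%. The longer Rev-erb type half-site TAGGTCA, which contains AGGTCA, was in 5 members (0.956%), against 0.823% of all summits. The ecdysone palindrome core GTCANTGAC was in none of the 523, which allows a share of up to 0.574% (3 counts), where all summits had it in 0.177%. These letters were therefore about as frequent at members as beside them.

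The optimal set had AGGTCA at 1 of 10 CDS members, bif. The match lay 36 bp from the summit and is shown on the plus strand at chrX:11681818-11681847 (RefSeq dm6), with the half-site in capitals. The Wnt6 member, of rank 29681, is shown on the minus strand at chr2L:7351217-7351246 because it holds the longer half-site 6 bp from its summit, and was chosen after its sequence was seen.
bif: cgattccactggAGGTCAtcactctgttgt
Wnt6: ttcgtcacggcgTAGGTCActcccgcggct
Wnt6 encodes a secreted signal of the Wnt family, and its member lay near the bottom of the pooled list.

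Of other motifs, the E-box CACGTG was in 12 CDS members (5.45%), against 1.59% of their flanks and 1.98% of all summits. It was in none of the 303 3′ UTR members, against 3.63% of their flanks. CDS members averaged 54.7% GC, their flanks 44.6% and all summits 38.5%, and no share matched for GC content was computed. None of the 12 CDS members with an E-box was in the optimal set. That set held only 4.55% of all CDS members, so this absence is not read as a difference. The AP-1 site TGANTCA was in 20 3′ UTR members (6.60%), against 3.47% of their flanks and 4.86% of all summits. A run of 8 A was in 19.1% of 3′ UTR members and 5.91% of CDS members, against 17.3% of all summits. These are descriptions of letters, with no test.

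Host genes were compared with fixed gene lists. A member lay in 426 of 13945 protein-coding genes (3.05%), and an optimal member in 61 (0.437%). Of the 21 nuclear receptor genes, 8 held a member (38.1%), and of 30 ecdysone response genes 7 did (23.3%). Only 1 gene of both lists held an optimal one. Listed receptor genes have on average 3609 bases of CDS or 3′ UTR over 1 kb from a TSS, against 1410 bases in all protein-coding genes. Per Mb of such bases they held 106 members and the ecdysone response genes 50.7, against 27.0 over all genes. The lists overlap, since Hr4, Hr3, Eip78C, Eip75B and ftz-f1 are hosts in both.

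The optimal one was in Hr4 (FBgn0264562), a receptor gene of the prepupal ecdysone cascade. It lay in the 3′ UTR, at 2006012 on X and 1944 bp from the transcript end, ranked 3707, and had replicate ranks of 3780, 4357, 7201 and 2690. Hr3, another ecdysone-induced receptor gene, held a 3′ UTR member of rank 8427, the strongest of all members outside the optimal set, with replicate ranks of 11004, 7184, 18173 and 10669. The other receptor members were weak. In Eip78C itself a CDS member ranked 21098, met in replicates 2 and 4 only, and in Eip75B, the related Rev-erb receptor gene, a CDS member ranked 23362. Those of kni, Hnf4, svp and ftz-f1 ranked between 15325 and 26466.

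Patterning genes gave the same picture of many weak members. Of 34 genes 9 held a member (26.5%; 105 members per Mb), none in the optimal set, with hth first at rank 10916. Of the genes in the other lists, 0 of 34 zinc finger, 0 of 29 chromatin, 0 of 24 muscle, 0 of 26 matrix and 0 of 28 signalling genes held one, nor did any of the 11 listed glue or 23 listed cuticle genes. Of 23 fat body and lipid genes only Lsd-2 did, and of 20 insulin and growth genes only Myc, whose 3′ UTR member ranked 5036 (mean replicate rank 6000 ± 2320, SD, n = 4) and also lies in CG12535. The remaining lists had 1 to 3 hosts each and no optimal member, with Hsc70-3 (rank 8689), Act5C (12571) and hid (13394) the best placed. At the share of 3.05% over all protein-coding genes, lists of this size hold few hosts by count of genes. By eligible sequence not all lists without a host are short, with 245569 bases in the muscle list and 178524 in the zinc finger list. The receptor list had 75788 bases and 8 members, and the density over all genes was 27.0 members per Mb. Without a test, these counts of 0 are not read as a difference. The counts cover listed genes only, since Cpr73D, a cuticle protein gene outside the lists, held a member of rank 9499. Lists differ in length of eligible sequence and in the share of it that is 3′ UTR, and no test of a list was made.

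Members were not evenly spread over the arms. X held 131 members, or 33.9 per Mb of eligible sequence, and 25 of the 67 optimal ones. Of all 30000 pooled peaks X held 6052, and its share of the whole optimal set was not computed, so the 25 have no background. The arms 2L, 2R, 3L and 3R held 23.6 to 27.1 per Mb, and chromosome 4 had 2 members, among them the strongest. For CDS members alone the density was 16.2 per Mb on X and 14.7 to 16.1 on the 4 large autosomal arms, while 3′ UTR members were at 72.9 per Mb on X and 47.6 to 67.6 on those arms. Other summits over 1 kb were at 267 per Mb on X and 187 to 250.2 there. No test over arms was made.

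Nearness to other peaks and repeats were checked. A better-ranked summit lay within 500 bp of 63 members (12.0%), 5 of them optimal. The share was 16.3% for other summits over 1 kb from a TSS and 17.8% for all pooled peaks. The 31 bases at the summit occurred once in the genome for 522 members, and for 1, an optimal member in the CG32767 3′ UTR, a further copy exists. The members nearest to the 1 kb limit were in Sdb and CG3603, both 1004 bp from a TSS, while summits in CG15236 and CG1572, at 994 and 991 bp, were left out. The weakest optimal members were in Glut4EF (rank 7861) and RpS26 (7895), and the strongest outside the set after Hr3 was in Hsc70-3.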

How the data were processed

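Peak lists on dm6 were used, and dm3 lists were not. Per the file headers, the authors called each replicate list from its own alignment and 1 further file that is listed by accession only, and the pooled list on 4 alignments. The optimal set was derived from the pooled list and those of replicates 2, 3 and 4, per the same source. Which aligner, caller and IDR threshold were used is not given in the sources used here. Deposited lists give a signal score, used only to rank within a list, −log10 of a q-value, not used to rank, and another column, the summit offset, as the authors wrote it.

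From these, summits were classed with the Ensembl annotation (release 115, BDGP6.54; transposable elements left out of the TSSs), in the order CDS, 3′ UTR, other exon, intron, intergenic, on 1-based dm6 positions. A summit in both CDS and 3′ UTR counted as CDS. Overlap meant at least 1 bp, and the best-ranked overlapping peak gave the replicate rank. Exact intervals are Clopper-Pearson and, like the limit for a count of 0 (3 counts), cover counting error only. Replicates were compared by exact two-sided sign-flip permutation tests. The 13 motifs and 18 gene lists (431 of 437 symbols matched) were searched without tests. Genes are named by rule: hosts of the 15 best CDS and 10 best 3′ UTR members, up to 3 optimal hosts per list, genes with at least 3 optimal members, and members at the limits. Other list members and Wnt6 were named with their values known. The members and lists were chosen with earlier results of these data known. Alternatives covered TSS sets, distances, overlap rules, list length, windows and left-out replicates. Classing, overlap, motif search and the permutation test were checked on planted examples. Python 3.11.15, pandas 2.3.3, numpy 2.4.6, scipy 1.17.1 and matplotlib 3.10.9 were used.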

Additional observations from a re-analysis of the deposited data

Results flagged for a closer look

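In 4 of 37 sets of 4 replicate values, 1 replicate stood apart from the other 3 by more than the limit of Dixon's test at 95%, which chance alone reaches in about 1 in 20 sets. The 3′ UTR share of the full list was 1.55% in replicate 1, against 1.29 to 1.30% in the others. The full list of replicate 2 met 54.5% of the 3′ UTR members, against 69.6 to 71.0% for the others. The strongest peaks of replicate 4 met 6.82% of the CDS members, 1 member fewer than each of the others at 7.27%. The Pde1c member ranked 3626 in replicate 3, against 1908 to 1997 in the other replicates.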

How the results depend on the processing

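The low share of members held under each setting run. The difference in overlap with replicates, members minus other summits over 1 kb, was −14.3 points with all 30000 replicate peaks, −11.0 with at least 50% of the peak covered, −10.3 with replicate summits within 100 bp, and −13.5 to −12.2 with each replicate left out. The members' own overlap was 60.2%, 12.1% and 11.3% under the first 3 settings, and 13.7 to 14.3% with each replicate left out. In the strongest 50% of the optimal set lay 3.82% of the members, against 13.8% of all peaks. Counting summits over 2 kb from a TSS left 320 members, and the classes alone gave 220 CDS members (4.55% optimal) and 303 3′ UTR members (18.8%). The share of each replicate's strongest summits was 0.495% over 2 kb and 1.02% over 500 bp from a TSS, against 9.20% and 18.4% of bases, 2.86% in full lists (2.36% without replicate 2), and 0.825 to 0.861% with each replicate left out. The half-site was in 2.29% of members in 100 bp and in 2.99% of optimal members, and smaller windows hold any motif less often. One direction turned, since 3′ UTR density relative to introns was 1.37 at 50 to 55% GC, from 2 to 5 summits per replicate, and 0.188 over all GC classes; in all 30000 pooled peaks it was 0.553 in that class and did not turn. The cause was not tested. The GC classes and the value without replicate 2 were chosen after seeing the data. With replicate summits within 100 bp, bif and Cpr73D lacked a value in at least 1 replicate and have no mean. No paired analysis was possible because all samples form 1 group, so no groups of samples could be paired. The sign-flip tests compare regions within each replicate. Unknown depth limits what weak ranks show.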

Other observations

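Over all distances from a TSS, coding sequence was low in the optimal set from the start. Within 250 bp of a TSS, CDS held 13 optimal summits (7.70 per Mb) and 3′ UTRs 27 (94.6 per Mb), against 213 per Mb in introns. In the next 250 bp the values were 1.18 and 47.1 per Mb, against 172 in introns. Some genes held several members spread over one long 3′ UTR. The gene corto held 6 members, more than any other, 5 of them in its 3′ UTR and the best at rank 9232, outside the optimal set. CG32767 held 5 in its 3′ UTR, of which the best, at rank 6913, was optimal. Neighbouring summits about 200 bp apart overlapped the same replicate peaks in both genes, so the counts of members exceed the counts of separate peaks.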
